A study of Saccharomyces cerevisiae with 24 samples.

Results

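Ribosomal protein genes of budding yeast, Saccharomyces cerevisiae, that are listed as having no intron were followed through chromatin immunoprecipitation profiles of the splicing machinery. The members are 42 open reading frames named by their locus, 21 for proteins of the large subunit, 16 for the small subunit and 5 for the acidic stalk, out of 5674 genes with a usable spot. All 42 had a value in each of the 24 columns. They fall into 29 gene families, and for 13 of these both copies of a paralog pair are listed. In the RefSeq gene table of assembly R64, 41 of the 42 gene spans are multiples of 3, as an uninterrupted reading frame needs. RPP1B is the exception: its span is 622 bases against 321 for its partner RPP1A, which goes against its listing, so it is described as a case of its own. Spans of coding sequence cannot show an intron in an untranslated leader. A span that is a multiple of 3 is also weak evidence by itself, since 33 of 87 ribosomal protein genes on the intron list have one too.

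Ribosomal proteins build the large and small subunits around ribosomal RNA, and in yeast many of them are encoded by a pair of nearly identical genes. These genes are among the most strongly transcribed in growing cells, and a large part of the introns that yeast has to splice lies in those members of the family that carry one. The spliceosome forms on the nascent transcript while RNA polymerase II is still on the gene, so that splicing factors can be crosslinked to the DNA of the gene being transcribed. Prp40 is a U1 snRNP protein, and that particle recognises the 5' splice site, and BBP and Mud2 bind at the branch point. Lea1 and Prp11 belong to the U2 snRNP, whose entry the ATPase Prp5 assists. Brr2 unwinds U4 from U6, the Prp19 complex and the ATPase Prp2 ready the particle for catalysis, and Sub2 acts in splicing and mRNA export.

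Each value is a log2 ratio of immunoprecipitate and whole-cell extract on a spotted open reading frame, and each column combines 2 to 6 biological replicates of 1 strain and culture. The 12 profiles are BBP_3HA, PRP40_9myc, Mud2_13myc, lea1_13myc, PRP11_13myc, PRP5_9myc, PRP2_13myc, BRR2_13myc, PRP19_9myc, SUB2_3HA, SPT5_9myc and RNAPII. Every named factor carried a C-terminal epitope tag at its own locus, and the label of the polymerase column names no tag. Cells grew in rich medium to an optical density of 0.6, with no growth entry for BBP. PRP40_9myc was also measured in the deletion del_cbc, and PRP40_9myc and MUD2_13myc were measured after a shortened fixation, without and with RNase. PRP40_3myc was measured in a control, in spt5_194 and after 30 minutes with 80 ug/ml 6-azauracil (6AU), all in SC-URA medium. LEA1_13myc and BRR2_13myc were measured in SUB2 wild type and in the temperature-sensitive SUB2_85, all in SC-HIS medium, warmed for 5 minutes and held at 37C for 30 minutes. Only these combined values were used, so the spread between replicates could not be computed, no p-value is given, and every difference below describes combined columns. Precision is limited by how few arrays were run.

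No source used here states which channel is the numerator, and the ratio is in all likelihood immunoprecipitate over extract. In 3 pairs of columns Pearson's r over all spots was below -0.3: the Mud2 profile with 6AU (-0.34), and RNase-treated Mud2 with both spt5_194 (-0.36) and the SUB2 wild-type Lea1 column (-0.32). Spearman's rho was -0.40 for the Mud2 profile with 6AU. It was 0.05 with spt5_194 and 0.04 with Lea1 for RNase-treated Mud2, so ranks in these pairs were not opposed. No label settles the direction of these 5 columns, and their results are given with the sign turned as well. As deposited, intron genes had medians of 2.27 for the Mud2 profile, 0.56 in spt5_194 and 0.74 in the Lea1 column. They were near zero with 6AU (-0.04) and for RNase-treated Mud2 (0.01). Glycolytic genes had 1.34 with 6AU and 1.12 in spt5_194, beside 0.79 in the control that both share. Turned signs would put the larger of these medians below zero. Column medians over all genes lay between -0.14 and 0.05, and robust standard deviations between 0.09 and 0.69, so a ratio of given size does not mean the same in each column. A gene was called at a log2 ratio of 1, which is 2-fold, and a second call took the top 5% of each column.

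Most of the 42 genes carried a modest amount of Prp40, BBP, Mud2, Lea1, Prp11 and Prp5. It was well below that of ribosomal protein genes with an intron, and a few genes reached the intron genes' median. In the profiles from rich medium 5 of the 42 reached this median for Prp40, where 0.958% of all genes did, and 6 for Lea1 (1.58%). For Mud2 1 did, which is near the share of all genes (2.43%). Brr2 went the other way, as given below. For Prp40 the median over the 42 was 0.74, against 2.13 over the 87 intron-bearing ribosomal protein genes and -0.05 over all genes. All 42 were above zero, 16 were past 2-fold and 21 were in the top 5%, where 3.39% of all genes passed 2-fold. Among the intron genes 83 of 87 passed 2-fold. The lowest members for Prp40 were RPS28A at 0.16, RPL11B at 0.24 and RPL12A at 0.29, and RPS25B at 2.53, RPL24B at 2.49 and RPL24A at 2.45 were among the highest.

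BBP had a median of 0.30 over the 42, with 5 past 2-fold (1.04% of all genes) and 16 in the top 5% (5.01% of all genes). Its lowest value was RPP2A, a stalk protein gene, at -1.24. Prp11 gave 0.28, with 5 past 2-fold (1.08% of all genes), and Lea1 0.60 with 8 (3.28%). Prp5 stood at 0.51 with 4 past 2-fold (1.24%), yet 23 of the 42 were in its top 5%. Mud2 had a median of 0.73 and 16 past 2-fold, where 12% of all genes passed, and 6 were in its top 5% (5.02%). With the sign of the Mud2 column turned the median is -0.73, none of the 42 passes 2-fold and none is in the top 5%. As deposited, intron genes had a median of 2.27 in this column, with 81 of 87 past 2-fold. In the Mud2 column without RNase, whose direction is not doubted here, their median was 1.96. The intron genes exceeded the 42 by 1.54 in median for Mud2 as deposited, by 1.40 for Prp40, 1.04 for Lea1, 0.69 for Prp11, 0.64 for BBP and 0.50 for Prp5.

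Among the factors that act later, the 42 stood below the intron genes for Prp2 and Prp19 and above them for Brr2 in rich medium. Prp2 had 11 of 42 past 2-fold (3.81% of all genes), a median of 0.55, and 0.93 over intron genes. Prp19 had 6 past 2-fold (2.13%) and a median of 0.40 against 0.90. For Brr2 the 42 stood above the intron genes, at 0.62 against 0.35, although only 4 passed 2-fold (3.10%) and 15 were in the top 5%. Those past it included RPP2A at 1.33, RPS15 at 1.10 and RPL10 at 1.08. Sub2 had a median of 0.02, with RPL1A at 1.15 and RPL11B at 1.02 past 2-fold, a share of 4.76% beside 4.20% of all genes.

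Of the 2 transcription columns, Spt5 was high on nearly all members and RNA polymerase II on most. Spt5, a transcription elongation factor, had 41 of 42 past 2-fold (6.79% of all genes) and a median of 1.56, next to 1.49 for intron genes. RPS28B, at 0.86, was the member below 2-fold. RNA polymerase II had 29 past 2-fold (8.51%), 18 in the top 5% and a median of 1.15 against 0.89. The highest polymerase values were RPL10 at 2.48, RPL9B at 2.09 and RPL3 at 1.99, and the lowest RPL38 at 0.26, RPL4B at 0.30 and RPS25B at 0.81. Glycolytic genes, which are intronless and strongly transcribed too, had medians of 1.41 for the polymerase and 0.90 for Prp40, and 7 of 16 passed 2-fold for Prp40. Their medians of 1.12 for Brr2, 1.17 for Prp2, 0.88 for Prp5 and 0.84 for Lea1 were above those of the 42. So were 0.54 for Prp11, 0.50 for Prp19 and 0.43 for BBP, while 0.58 for Mud2 as deposited was below.

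**Figure D1:**
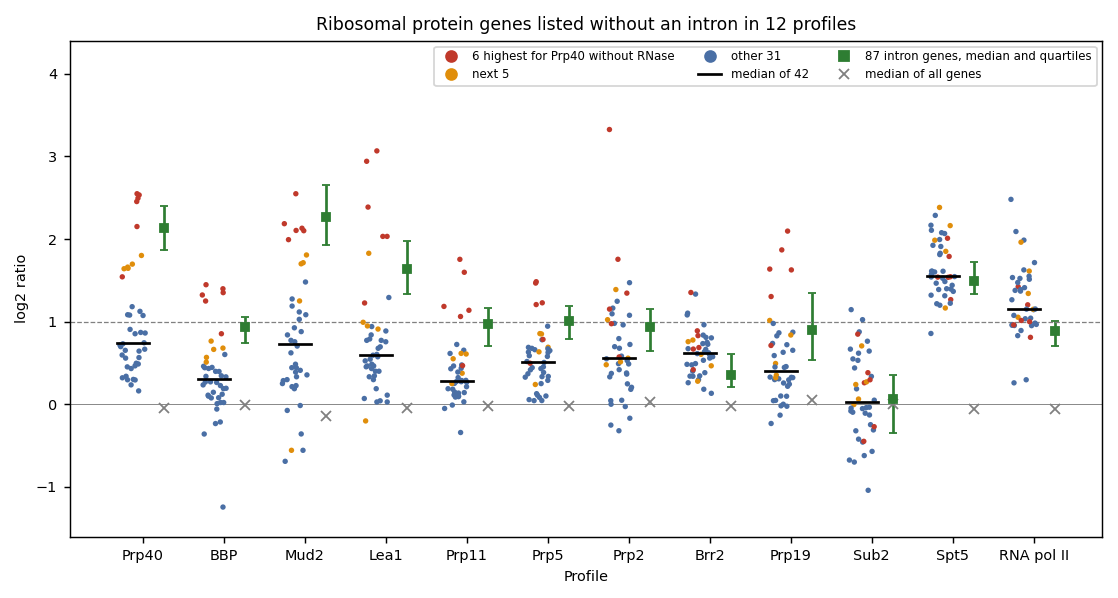
Log2 ratio (vertical axis) of the 42 genes in each of 12 profiles, with points coloured by their Prp40 value without RNase, a black bar at the median of the 42, a green square with quartiles for 87 intron genes and a cross for the median of all genes. The dashed line marks 2-fold. For Prp40 the 6 red points sit between 1.54 and 2.55, while for RNA polymerase II they lie between 0.81 and 1.42, inside the cloud of the other members.

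Across the 9 splicing factor profiles other than Sub2, 13 of the 42 genes were in the top 5% of at least 5, which was so for 2.93% of all genes with 9 values and for 82 of 87 intron genes. By 2-fold in at least 5 profiles the count was 5, against 1.33% of all genes and 56 of 87 intron genes. They included RPL24A and RPL24B with 8 profiles each and RPS25B with 7, Mud2 as deposited among them. At the other end 7 members were in the top 5% of none: RPL11A, RPL11B, RPL12B, RPL15A, RPL15B, RPL38 and RPS28A. A total of 19 passed 2-fold in none. The share of all genes in none was not computed for either call. In single profiles between 1.04% (BBP) and 12% (Mud2) of all genes passed 2-fold, so these counts do not set the members below other genes. With the Mud2 profile turned or left out, the counts of 13 and 5 are the same, against 2.84% and 0.924% of all genes when turned, and 21 members pass 2-fold in none.

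The 6 members at or above the intron genes' median for Prp40 without RNase (2.43) included RPS25B (YLR333C) at 3.43, RPL24B (YGR148C) at 3.25, RPS29B (YDL061C) at 3.18 and RPL24A (YGL031C) at 3.07. They were singled out after their values had been seen, and 1.29% of all genes reach that level. The next member was RPS31 at 2.23. RPL24A and RPL24B code for both copies of a large subunit protein at an intersubunit bridge. RPS25B and RPS29B each code for a small subunit protein of the head, and the second copies of these, RPS25A and RPS29A, are not among the members.

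RPL24A ranged over the 24 columns from about zero to 3.07, with a median of 1.32, and had 2.45 for Prp40, 2.55 for Mud2, 2.39 for Lea1 and 1.45 for BBP. RPL24B ranged from -0.03 to 3.25, with a median of 1.23, and had 2.10 for Prp19, the highest value of any member in that profile. RPS25B ranged from -0.45 to 3.43 with a median of 1.05, and RPS29B from -0.19 to 3.18 with a median of 0.83. These minima came from the Sub2 column for RPS25B, from Mud2 with RNase for both RPL24 copies and from 6AU for RPS29B.

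For the same 6 genes the polymerase column was ordinary, from 0.81 to 1.42 with a median of 1.01, against 1.15 over the other 31 and from 1.05 to 1.96 over the next 5. Spt5 lay between 1.27 and 2.01. RPL10, a large subunit protein needed for subunit joining, had the highest polymerase value of the 42, 2.48, and 0.91 for Prp40. Over the 42 members the Pearson correlation of Prp40 with the polymerase was 0.06 and Spearman's rho 0.16, and without the 6 genes they were 0.31 and 0.36 over 36 genes. Brr2 followed the polymerase with 0.35 and 0.40 and Spt5 did so with 0.61 and 0.58. Prp40 and BBP went together with 0.77 and 0.76. These are descriptions across genes, which share arrays, amplification and base composition.

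A further 5 members lay between 1.5 and the intron genes' median for Prp40 without RNase. These are RPS31 (YLR167W), which codes for a ubiquitin fusion of a small subunit protein, RPL8A (YHL033C) and RPL8B (YLL045C) of the large subunit, RPS22A (YJL190C) of the small subunit and RPP1B (YDL130W) of the stalk. Their Prp40 profile values lay between 1.64 and 1.80. They had 0.51 to 0.77 for BBP, 0.25 to 0.62 for Prp11 and, RPL8B apart, 1.25 to 1.81 for Mud2. RPL8B stood at -0.56 for Mud2 and -0.20 for Lea1, where RPL8A had 1.25 and 0.91, but the copies had 1.64 and 1.70 for Prp40 and 1.72 and 1.85 for Mud2 without RNase.

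RPP1B was the 1 gene of these 5 above the intron genes' median for Lea1, at 1.83 against 1.64, with 1.65 for Prp40, 1.70 for Mud2 and 1.02 for Prp19. Its partner RPP1A, the other gene for this pair of acidic stalk proteins, had 0.94 for Lea1, 1.08 for Prp40, -0.07 for Mud2 and 0.22 for Prp19. For RNA polymerase II both stood at 1.15. RPP1B ranged over the columns from -0.09 to 1.99, with a median of 0.63, and RPP1A from -0.11 to 1.31, with a median of 0.34.

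**Figure D2:**
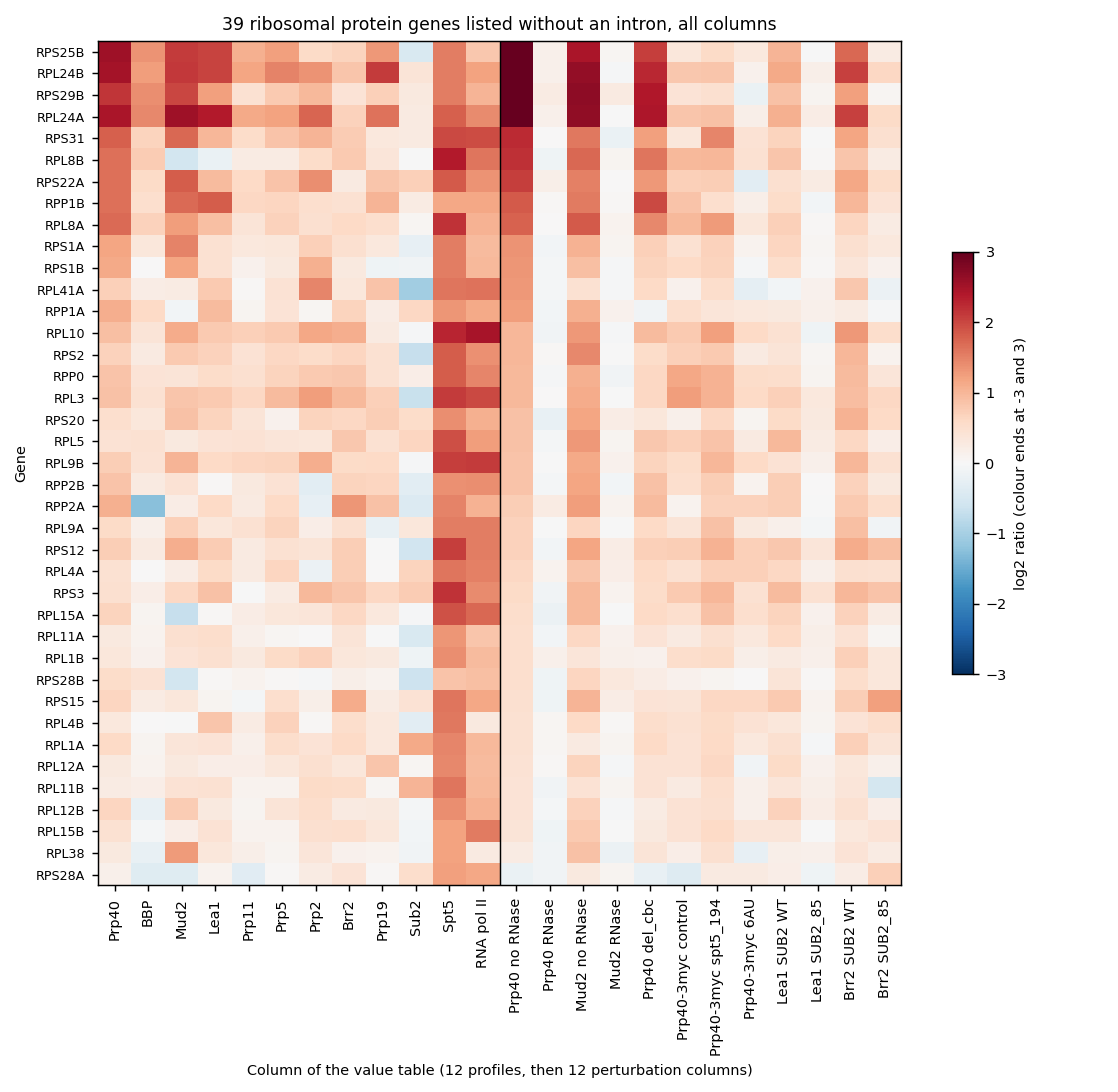
Log2 ratio of 39 of the 42 genes (vertical axis, ordered by Prp40 without RNase) in each of the 24 columns (horizontal axis, profiles left of the line), coloured from blue at -3 to red at 3. RPS25B at the top and RPS28A at the bottom are farthest apart for Prp40 without RNase, at 3.43 and -0.21, while the Spt5 column is red throughout, from 0.86 to 2.38.

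The remaining 31 genes had a Prp40 median of 0.64, from 0.16 to 1.18. RPS1A and RPS1B of the small subunit led them with 1.18 and 1.13, and RPP1A and RPP2A of the stalk had 1.08 each. Genes with central roles in the large subunit lay on both sides of the median of the 31. RPL3, close to the peptidyl transferase centre, had 0.87, RPP0, the base of the stalk, 0.86, and RPL5, which binds 5S rRNA, 0.43. RPL3 was in the top 5% of 8 of the 9 splicing factor profiles while passing 2-fold only for Prp2, at 1.25. RPL11A and RPL11B, partners of RPL5 on that RNA, had 0.30 and 0.24. RPS28A and RPS28B, for a small protein at the mRNA exit, had 0.16 and 0.56 for Prp40 and -0.36 and -0.56 for Mud2.

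By subunit, the 21 large subunit genes had a Prp40 median of 0.60, the 16 small subunit genes 1.10 and the 5 stalk genes 1.08. In the Mud2 column without RNase, which is not among the 5 of unsettled direction, they were 0.84, 1.18 and 1.19. RNA polymerase II gave 1.27, 1.11 and 1.15. Gene span, from 78 to 1164 bases, had a Pearson correlation of -0.13 with Prp40 and 0.44 with Spt5 over the 42.

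Neighbours and paralogs were set beside the members, since sheared chromatin reaches past a gene's end and a spotted reading frame can bind DNA of a near-identical copy. RPL24A, at 2.45 for Prp40, lies 1156 bases from the intron gene RPL30, which had 2.35. Its copy RPL24B, at 2.49, has no neighbour on the intron list, and its spot may share signal with RPL24A. RPS22A lies between the intron genes RPS14B, 298 bases away with 2.09 for Prp40, and RPL39, 630 bases away with 2.19. Its own paralog RPS22B carries an intron and had 2.49 (RPS22A 1.66), and 3.31 without RNase (RPS22A 2.07). RPP1A lies 413 bases from RPL13A, which had 2.21. RPP2B, at 0.85 for Prp40, lies 641 bases from COI1, whose span is no multiple of 3 and which has no value here. The other 38 members have no direct neighbour on the intron list or with such a span. These 38 include RPL24B, RPS25B and RPS29B, each of which has a paralog that is also past 2-fold for Prp40. The part of neighbours or copies in these values was not tested.

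RPS25A and RPS29A, placed on neither list and named after their values were seen, matched their partners: 3.37 and 3.43 for RPS25A and RPS25B for Prp40 without RNase, 3.32 and 3.18 for RPS29A and RPS29B. Over the 13 pairs with both copies listed, the Prp40 values without RNase of copies A and B had a Pearson correlation of 0.96 and a median difference of 0.15 in size. Of these pairs 5 had both copies past 2-fold and none had only 1. For RNA polymerase II the correlation was 0.27, with RPL4A at 1.51 and RPL4B at 0.30 farthest apart, and for Sub2 it was -0.39. The median difference for the polymerase, 0.165 in size, was close to that for Prp40. Spearman's rho was 0.86 for Prp40 without RNase and 0.34 for the polymerase. Spans were equal in 11 of the 13 pairs, RPP1 and RPP2 being the others.

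**Figure D3:**
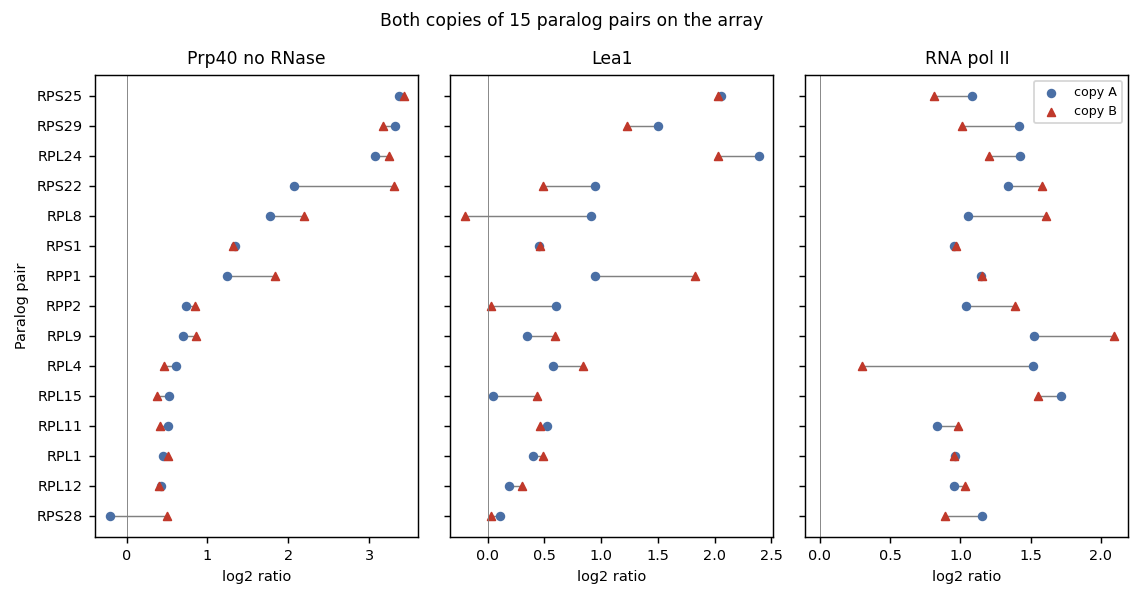
Log2 ratio (horizontal axes) of copy A (circles) and copy B (triangles) of 15 paralog pairs with at least 1 listed member (vertical axis), for Prp40 without RNase, Lea1 and RNA polymerase II. The copies of RPS25, RPS29 and RPL24 lie together between 3.07 and 3.43 for Prp40 without RNase, and RPS22A at 2.07 lies below RPS22B at 3.31, while RPL4 shows the widest gap for the polymerase.

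RNase treatment after shortened fixation tested the RNA dependence of Prp40 and Mud2 binding. Without RNase, Prp40 was past 2-fold on 17 of the 42 (4.92% of all genes) and Mud2 on 24 (3.98%). With RNase neither was past 2-fold on any, where 0.300% and 0.458% of all genes were. The Prp40 values of the 42 went from a range of -0.21 to 3.43 to a range of -0.23 to 0.25, and those of Mud2 from 0.28 to 2.69 to -0.19 to 0.37. The spread between members was thus nearly gone in both treated columns.

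The change for Prp40 had a median of -0.94 over the 42, against -2.30 over intron genes, -1.02 over glycolytic genes and 0.10 over all genes. It was at least 2-fold downward in 19 of the 42, where this held for 4.79% of all genes, and below zero in 41, where 34.9% of all genes were. RPS25B had the lowest change at -3.27, followed by RPL24B at -3.10 and RPS29B at -2.92. RPS28A, at -0.21 without RNase, was the member above zero, with 0.09, next to RPL1B at -0.35 and RPL38 at -0.36. Since all treated Prp40 values lay between -0.23 and 0.25, these changes largely follow the values without RNase. For Mud2 the median change was -0.99, with 20 of 42 at least 2-fold downward (3.70% of all genes), and all 42 below zero (42.8%). RPL24B at -2.67, RPL24A at -2.66 and RPS29B at -2.41 were lowest, and RPL1A and RPS28A were near zero at -0.19 and -0.20. Turning the sign of the treated Mud2 column gives a median of -1.13, with 25 of 42 at least 2-fold downward (4.32% of all genes).

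With RNase, the 6 genes highest without RNase kept small positive values for Prp40, from 0.14 to 0.25, where intron genes had a median of 0.18 and the other 31 members -0.06. In this column, whose robust standard deviation was 0.09, RPS29B was at percentile 98.5 of all genes. RPP2A, at 0.23, was the highest of the other 31. For Mud2 the 6 had a median of 0.03 with RNase, against 0.07 over the 31.

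**Figure D4:**
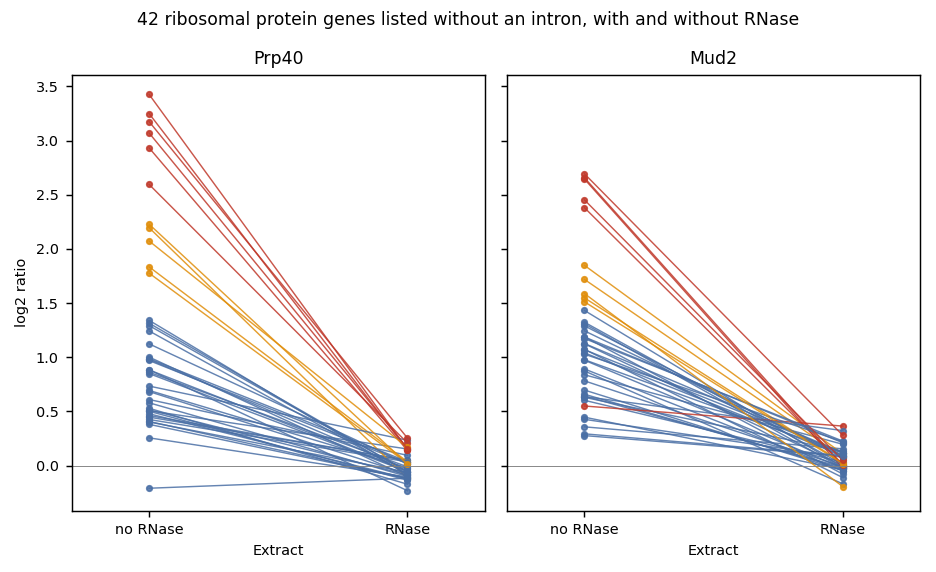
Log2 ratio (vertical axis) of each of the 42 genes without and with RNase (horizontal axis), for Prp40 on the left and Mud2 on the right, with 1 line per gene in red for the 6 highest, orange for the next 5 and blue for the other 31. Lines that start between -0.21 and 3.43 for Prp40 all end between -0.23 and 0.25.

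The deletion del_cbc asked whether Prp40 on these genes depends on the cap-binding complex, with the unperturbed profile as the control. The nuclear cap-binding complex sits on the cap of new transcripts and is known to help the U1 snRNP bind. In del_cbc 11 of the 42 were past 2-fold (3.23% of all genes), with a median of 0.62 against 0.74 in the unperturbed profile. The differences had a median of -0.12, beside -0.16 for intron genes and -0.04 for all genes, and 29 of the 42 were below zero, where 57.9% of all genes were. RPP1A was the 1 member lower by 2-fold, from 1.08 to -0.11 (0.763% of all genes), followed by RPS31 at -0.57 and RPS25B at -0.47. Its partner RPP1B went the other way, from 1.65 to 1.99. RPL5, at 0.38, and RPS29B, at 0.26, had the other highest differences. Against the Prp40 column without RNase, made after a shorter fixation, the median difference is -0.24 and 7.14% of the 42 are lower by 2-fold, where the profile as control gives 2.38%. The share of all genes was not computed for this control. Its 95th percentile over all genes was 0.97, against 0.74 in the profile, so the larger share is not read as a result about the members.

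Slowed elongation was examined with Prp40-3myc, in spt5_194 and with 6AU, a drug that lowers nucleotide pools. Both share a control column in which the 42 and the intron genes were nearly equal, at 0.48 and 0.50, where Prp40-9myc had 0.74 and 2.13. In the control 2 members passed 2-fold (0.952% of all genes), RPL3 at 1.25 and RPP0 at 1.15, and the 6 genes with high Prp40-9myc lay between 0.25 and 0.84. Tag, strain and medium all differ between these columns and cannot be told apart.

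In spt5_194 the 42 had a median of 0.69, and 7 passed 2-fold (1.06%): RPS31, RPL8A, RPL10, RPL3, RPP0, RPS12 and RPS3 had 1.47, 1.27, 1.22, 1.05, 1.05, 1.04 and 1.00. RPL8B lay just below the call. With the sign of this column turned, the median is -0.69 and none of the 42 passes 2-fold. The change had a median of 0.19 against 0.02 over all genes and 0.04 over intron genes, and 36 of 42 were above zero, 6 being below it where 45.2% of all genes were. None was lower by 2-fold (2.20% of all genes). RPS31, from 0.34 to 1.47, was the 1 member higher by 2-fold (0.705%). RPP1B, from 0.86 to 0.50, and RPL3, from 1.25 to 1.05, were among those below zero. With the sign of the spt5_194 column turned, the median change is -1.20 and 29 members are lower by 2-fold (4.18% of all genes).

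With 6AU the median of the 42 was 0.28, and that of the intron genes -0.04, while glycolytic genes had 1.34. None of the 42 passed 2-fold (0.916% of all genes), and with the sign turned the median is -0.28 and again none passes. The change had a median of -0.32 over the 42, -0.56 over intron genes and 0.41 over glycolytic genes, and 33 of 42 were below zero (45.4% of all genes). RPS22A was the 1 member lower by 2-fold (0.705%), from 0.71 to -0.30. RPP1B had -0.69 and RPL24B -0.67, and RPS28A at 0.65, RPP2A at 0.59 and RPL4A at 0.26 were the highest. Turning the sign of the 6AU column gives a median of -0.79 and 13 members lower by 2-fold (3.75% of all genes).

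The temperature-sensitive SUB2_85 strain asked whether Lea1 and Brr2 depend on Sub2. In SUB2 wild type at 37C, Brr2 was past 2-fold on 12 of the 42 (3.35% of all genes) and had 0.76 in median, against 1.48 over intron genes. RPL24B at 2.05 and RPL24A at 2.04 were among the highest. In the Brr2 profile from rich medium these copies had 0.83 and 0.69, and intron genes had 0.35, although medium and temperature both differ between these columns. In SUB2_85 the median of the 42 was 0.36, with 3 past 2-fold (2.10%), among them RPS15 at 1.24.

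The Brr2 change had a median of -0.41 over the 42 and -1.02 over intron genes, with 38 of 42 below zero (48.9% of all genes). It was at least 2-fold downward in 7 (2.61%), of which RPS25B at -1.48, RPL24A at -1.47, RPL24B at -1.42 and RPS29B at -1.16 belong to the 6 with high Prp40. Outside those 6 were RPL9A at -1.01 and RPL41A, just past the call. RPS15, at 0.49, and RPS28A, at 0.48, had the highest changes.

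Lea1 in SUB2 wild type had a median of 0.59 over the 42 and 0.74 over intron genes. RPL24B at 1.14, RPL24A at 1.06 and RPS25B at 1.03 were past 2-fold (0.441% of all genes), and 33 of the 42 were in the top 5%. With the sign of this column turned the median is -0.59, and none of the 42 passes 2-fold or is in the top 5%. In SUB2_85 the median was 0.13, the range -0.14 to 0.47, and none passed 2-fold (0.670%). The change had a median of -0.46 against -0.59 for intron genes and -0.01 for all genes, and 41 of 42 were below zero (51.8%). RPS25B was the 1 member lower by 2-fold (0.335%), at -1.04, with RPL24B at -0.96 and RPL24A at -0.85 next. RPL41A was above zero, at 0.20. With the sign of the Lea1 wild-type column turned, the median change is 0.72 and 8 members are higher by 2-fold (1.20% of all genes).

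**Figure D5:**
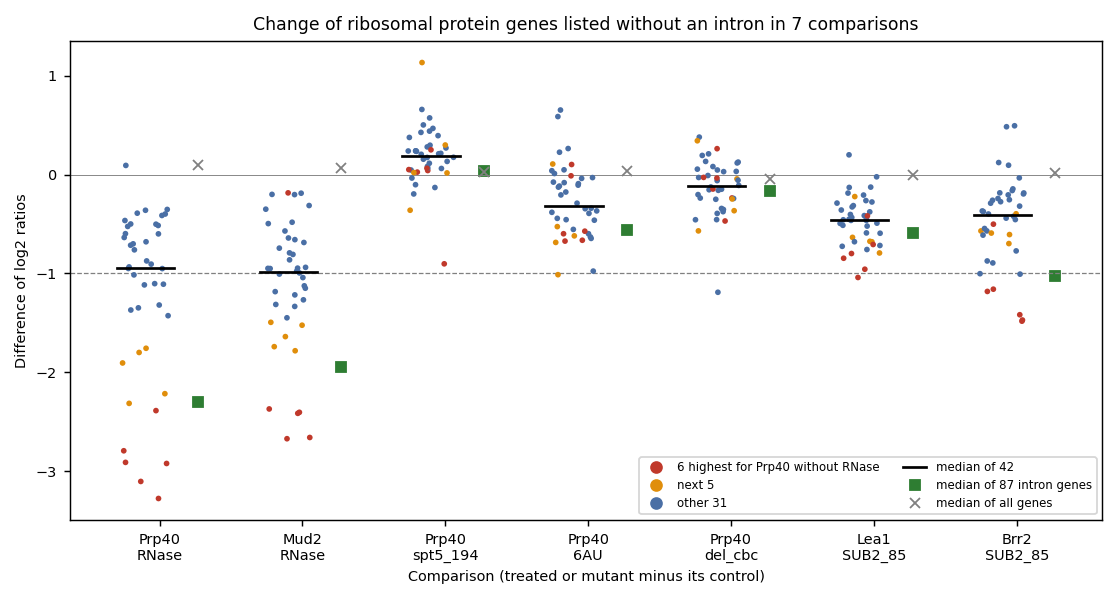
Difference of log2 ratios, treated or mutant minus control (vertical axis), for the 42 genes in 7 comparisons, with a black bar at their median, a green square at the median of 87 intron genes and a cross at the median of all genes. The dashed line marks a 2-fold lower value. With RNase the medians of the 42 were -0.94 for Prp40 and -0.99 for Mud2, and in the remaining comparisons they lay between -0.46 and 0.19 as deposited. With doubted signs turned the medians are -1.13 for Mud2 with RNase, -1.20 for spt5_194, -0.79 for 6AU and 0.72 for Lea1 in SUB2_85.

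Genes that serve ribosomal protein supply without being part of the ribosome were measured as a contrast. This list of 13 holds dedicated chaperones such as SQT1, for Rpl10, and SYO1, for Rpl5 and Rpl11, and regulators such as RAP1, FHL1, IFH1 and SFP1. None passed 2-fold for Prp40, where the median was 0.02 and the highest was IFH1 at 0.53, or for the polymerase, where it was -0.16 and the highest was SFP1 at 0.30. For Mud2, 1 of 13 passed, where 12% of all genes did. This was SYO1 at 1.78, which lies next to RPS29B and had -0.03 for Mud2 without RNase. With RNase 6 of 13 had a lower Prp40 value and 7 of 13 a lower Mud2 value, none by 2-fold.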

How the data were processed

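The deposited values are log2 ratios per spot, 1 column per sample, in which the authors had combined 2 to 6 biological replicates in Rosetta Resolver, per the labels and the series design text. Precipitated and input DNA went through linker-mediated PCR and Klenow labelling with both dyes, reversed in at least 1 replicate, and arrays were read on a GenePix scanner, per the labels. How arrays were normalised and combined is not stated in any source used here. Linker amplification and cross-hybridisation of paralogs can compress or share signal. Values stop at 6.64 in size, the log2 of 100, in 18 of 24 columns, and no member is at this limit.

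Of 6284 spots, 5674 matched a nuclear protein-coding locus of RefSeq R64 and 610 were not used. Calls were a log2 ratio of 1 or more, a difference of 1 or more in size, and the 95th percentile of a column. Python 3.11.15 with pandas 2.3.3 and scipy 1.17.1 was used, and the functions were tested on simulated data. The intron list, glycolytic list and supply list were compiled from general knowledge of yeast genes, and members and lists were chosen with earlier results of these data known. Named genes were the 3 highest and lowest members per column, paralogs and neighbours, and genes past 2-fold. Alternatives were centring, quantile normalisation, turned signs, other calls, smaller member sets, the no-RNase column as control for del_cbc and profile counts without Mud2. Some members are counted in all summaries and not reported by name here.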

Additional observations from a re-analysis of the deposited data

How the results depend on the processing

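For the 42 genes, 40 results (19 shares past 2-fold, 19 medians and both counts over profiles) were recomputed under the alternatives, giving 313 values. Of these, 251 stayed within the 95% interval over members around the reported value, or within 1.5 times a reported count, 59 moved beyond it and 3 changed sign. This interval describes genes, paralog copies included, and holds no spread between replicates. Shares of all genes were recomputed only for the counts over profiles and for differences with a turned sign. The top 5% call holds about 5% of all genes by construction. Other shares below describe the members only, since the share of all genes can move with the call or the scaling as well. The 251 include 38 with values at the limit left out, which could not change because no member is at the limit. A further 38 left out RPP1B alone. All 3 sign changes came from turning a column's sign, with medians of -0.73 for Mud2, -1.20 for spt5_194 and 0.72 for Lea1 in SUB2_85. Turning also gave a 6AU median of -0.79 and shares of 0% for Mud2 and for Lea1 in SUB2_85, 31.0% for 6AU and 69.0% for spt5_194, by the construction of the alternative. A call at 1.5-fold raised shares, as it must: Brr2 57.1%, Mud2 54.8%, Prp19 40.5%, Prp2 42.9%, Prp40 66.7%, Prp5 45.2%, RNA polymerase II 95.2%, Spt5 100%, Sub2 21.4%, Lea1 52.4%, and for lower values 33.3% for Brr2 and 35.7% for Lea1 in SUB2_85, 78.6% for Mud2 and 73.8% for Prp40 with RNase, and 23.8% with 6AU. The top 5% gave 38.1% for BBP, 35.7% for Brr2, 14.3% for Mud2, 42.9% for Prp11 and the polymerase, 33.3% for Prp19, 54.8% for Prp5 and 45.2% for Lea1. Quantile normalisation, which gives every column the same spread, gave medians of 0.48 for BBP, 0.30 for Mud2, 0.53 for Prp11, 0.38 for Prp2, 0.76 for Prp5, 0.57 for the polymerase, 0.98 for Spt5, -0.80 for Lea1 in SUB2_85, -0.75 for Mud2 with RNase, -0.52 for 6AU and 0.26 for spt5_194. Its shares were 38.1% for Lea1 in SUB2_85, 2.38% for Mud2, 23.8% for 6AU, 28.6% for Prp40 with RNase, 11.9% for the polymerase, 47.6% for Spt5 and 0% for Sub2. Centring the polymerase column gave 88.1%. With the no-RNase column as control, del_cbc gave a median of -0.24 and a share of 7.14%, from -0.12 and 2.38%. With 1 value per paralog pair del_cbc and Sub2 gave 0% and Spt5 100%, and without members beside an intron gene or with an intron paralog 6AU and del_cbc gave 0%. Without the 6 genes highest for Prp40, a choice made after seeing the data, BBP, Prp11, Prp5 and Lea1 in SUB2_85 gave 0%, Prp19 2.78%, and Lea1 and Brr2 in SUB2_85 5.56% each. Beyond these constructions the cause was not tested. No paired analysis was possible because each group has 1 combined column. For the same reason no replicate could be left out, and the spread between replicates stays unknown.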
